A study of Mus musculus with 10 samples.

Results

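Mouse J1 embryonic stem cells that received siRNA against Ino80 were compared with J1 cells that received a non-targeting siRNA (NT). The comparison took the 2 arrays labelled Ino80 siRNA and the 2 labelled NT, which is 4 of the 10 arrays of the study. The other 6 arrays carried RNA of cells treated with siRNA against Ino80b, Ino80c or Ino80e, with 2 arrays each, and entered only to share the estimate of the spread and for direct contrasts. J1 is a line derived from mouse blastocysts. All cells were kept in ESGRO medium, were moved to M15 medium for the transfection, and were harvested at 96 hours (day 4). The design text calls the 2 samples of a group biological replicates. P-values rest on the spread between the samples of a group, estimated over all 10 arrays. An siRNA lowers an RNA without removing the gene, and the siRNA sequences are not given in the sources used here.

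INO80 is a chromatin remodelling complex. Its ATPase, Ino80, uses the energy of ATP to move and space nucleosomes and to exchange histone variants, and accessory subunits, actin-related proteins and the RUVBL helicases assemble around it. Embryonic stem cells self-renew through a network of transcription factors centred on Pou5f1 (Oct4), Sox2 and Nanog, which the cytokine LIF and BMP signals feed. When that network weakens, such cells can turn towards a primed epiblast state, primitive endoderm or other fates, and a small share of them at any time resembles the 2-cell embryo. The title of the series puts the complex in the regulatory network of self-renewal, and the comparison asks which RNAs differed once the ATPase was lowered.

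Expression was read in 1 colour on Agilent 4x44K arrays. A level below is the log2 processed signal minus the 75th percentile of its array, so 0 means as bright as that percentile, and levels of different genes are not set against each other because each rests on its own probe. On the 4 arrays 66.9% to 79.0% of 41174 probes were well above background and no spot was saturated. Precision is limited with 2 arrays per group, and other limits on it were not tested. Between the arrays of a group, Pearson's r over genes, which are not independent replicates, was 0.9868 (NT) and 0.9905 (Ino80 siRNA). Both NT arrays lay alone on slide 1 and both Ino80 siRNA arrays on slide 2 together with the Ino80b arrays, so slide and siRNA cannot be told apart in the comparison with NT. The defining markers of embryonic stem cells Pou5f1, Sox2, Nanog, Zfp42, Sall4, Esrrb and Dppa5a were well above background on all 4 arrays.

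The sequences before the start sites of 3 genes that recur below are shown first, so that the letters searched for can be seen in place. Nanog and Tfcp2l1 fell, the latter with the lowest adjusted p of the pluripotency factors, and Zscan4c rose. Each run is the 250 bases before the annotated RefSeq start (GRCm38.p6), read 5′ to 3′ on the strand of the gene, with matches in capitals. In Nanog (chr6:122707239-122707488, plus strand) the capitals mark an octamer match (TTTGCAT) and, 1 base on, a match to the SOX letters CATTGT on the opposite strand. In Tfcp2l1 (chr1:118627695-118627944, plus strand) they mark TATAAA, and in Zscan4c (chr7:11005495-11005744, plus strand) TATAAA and CCAAT.
Nanog: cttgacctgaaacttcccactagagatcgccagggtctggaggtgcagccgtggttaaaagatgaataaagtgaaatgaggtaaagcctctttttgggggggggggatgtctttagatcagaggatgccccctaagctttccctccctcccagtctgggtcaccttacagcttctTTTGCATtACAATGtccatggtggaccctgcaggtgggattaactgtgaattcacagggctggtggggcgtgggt
Tfcp2l1: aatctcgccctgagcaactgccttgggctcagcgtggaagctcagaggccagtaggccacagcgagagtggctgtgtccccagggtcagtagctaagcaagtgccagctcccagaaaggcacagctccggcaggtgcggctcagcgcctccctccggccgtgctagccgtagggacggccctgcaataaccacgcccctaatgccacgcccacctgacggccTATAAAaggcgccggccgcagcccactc
Zscan4c: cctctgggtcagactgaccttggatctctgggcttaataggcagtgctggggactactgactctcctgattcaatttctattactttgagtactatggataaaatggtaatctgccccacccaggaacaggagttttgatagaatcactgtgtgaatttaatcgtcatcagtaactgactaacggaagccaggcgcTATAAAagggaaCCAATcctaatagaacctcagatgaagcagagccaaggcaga
The windows differ in base composition, with 3 CpG dinucleotides before Nanog, 16 before Tfcp2l1 and 3 before Zscan4c.

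Ino80 RNA was lower in the cells that received its siRNA. On the probe used, its level was 2.43 and 2.35 on the NT arrays and 1.29 and 1.09 on the Ino80 siRNA arrays. The groups did not overlap, and both arrays of the knockdown were low. The log2 fold change was -1.20 ± 0.13 (standard error, n = 2 arrays per group, limma, adjusted p = 0.0041), which leaves 43.6% of the NT signal. The other probes of the gene were lower too, with 53% and 72.4% of NT left. The sequences of these other probes, named on the array for the older symbol of the gene and placed by the array files on build mm7, are shown. The probe behind the fold change above is not among them.
A_52_P533724 (chr2:119147677-119147736, 53% of NT): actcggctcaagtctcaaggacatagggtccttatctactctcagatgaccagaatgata
A_52_P354363 (chr2:119123739-119123798, 72.4% of NT): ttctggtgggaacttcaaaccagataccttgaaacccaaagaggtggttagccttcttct
With only the 4 arrays in the fit the difference kept its size and no longer passed (adjusted p = 0.118).

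Among 14 genes of the INO80 complex that were tested, Ino80 and Actl6a fell and Uchl5 rose. Actl6a, an actin-related subunit shared with other remodellers, fell by 0.47 ± 0.12 on the log2 scale (adjusted p = 0.0427), with levels of 4.67 and 4.54 in NT and 4.16 and 4.11 with Ino80 siRNA. Uchl5, a deubiquitinating enzyme that associates with the complex, rose by 0.63 ± 0.15 (adjusted p = 0.0414), from 4.49 and 4.33 to 4.89 and 5.19. Neither group overlapped the other, but both calls were fragile. The call of Actl6a was lost whichever of the 10 arrays was left out, its other kept probe differed in sign, and that of Uchl5 was kept in 1 of the 10 cases, without Ino80 replicate 1. The other 11 members, among them the accessory subunits Ino80b (0.30), Ino80c (0.19) and Ino80e (-0.05), the actin-related Actr5 (0.27) and Actr8 (0.00) and the helicases Ruvbl1 (0.35) and Ruvbl2 (-0.36), did not pass.

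Of 20663 genes tested, 2533 (12.3%) were called at an adjusted p under 0.05. Of these 1549 (7.5% of all tested) were higher and 984 (4.76%) lower with Ino80 siRNA. The changes were larger downwards. A 4-fold difference was reached by 90 of the lower and 45 of the higher genes, and a 2-fold difference by 499 and 675. The median log2 difference over all genes was 0.17 and moves with the scaling. With each array centred on its median instead 598 genes were higher and 938 lower (38.9% of calls higher, against 61.2% with the 75th percentile). Lists are therefore also described relative to the median of all genes. Counts of list members called are to be read beside the shares of all genes, 7.5% higher and 4.76% lower. The arrays of the 2 groups did not overlap for 11166 genes (54%), a background that makes non-overlap alone no sign of a change. All 2533 called genes were among them, so non-overlap of a called gene adds nothing to its call.

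How many genes were called rested on single arrays. Without Ino80 replicate 2 there were 560 calls, without NT replicate 2 831 and without NT replicate 1 3308, against 1902 without Ino80 replicate 1. Leaving out an array of another knockdown, which touches only the shared spread, gave 1531 (Ino80b), 1613 (Ino80c) and 1555 (Ino80e). With only the 4 arrays in the fit limma called 0 genes, of which 3859 had an unadjusted p under 0.05, against 6462 in the fit of all 10 arrays. Of 230 called genes that the naming rule picked, 80 kept their call without any 1 of the 10 arrays. Some of these are marked below as holding without any 1 array. A missing mark does not mean that a call was lost.

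**Figure D1:**
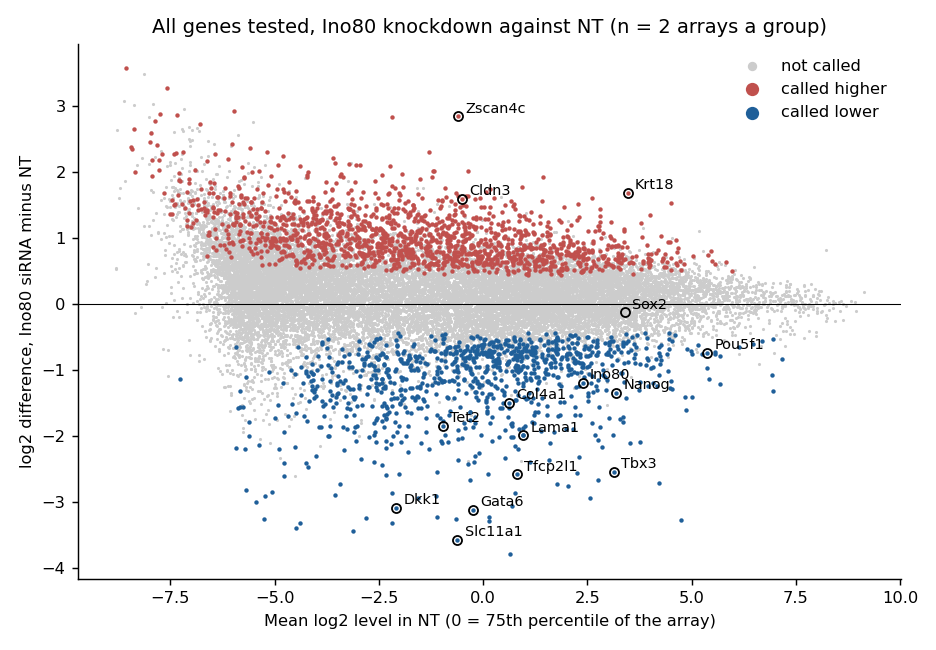
Each point is 1 of 20663 genes, with its mean level over the 2 NT arrays on the x axis (log2 signal relative to the 75th percentile of the array) and the log2 difference between Ino80 siRNA and NT on the y axis. Red points were called higher (1549) and blue points lower (984), grey points were not called, and Slc11a1, Gata6 and Dkk1 are the lowest labelled points.

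Regulators, receptors and surface genes of primitive endoderm were among the largest falls. Primitive endoderm is the layer of the blastocyst that gives rise to the yolk sac, and stem cell cultures hold some cells that express its genes. Of 25 list members tested 11 fell and 1 rose, so 44.0% were lower beside 4.76% of all genes, with a median of -0.62 against 0.17. Gata6, the transcription factor that specifies the lineage, had levels of -0.15 and -0.31 in NT and -3.54 and -3.16 with Ino80 siRNA. Both knockdown arrays were far below both NT arrays, the log2 fold change was -3.12 ± 0.19 (adjusted p = 0.00152), and the call held without any 1 array. Its other probes gave -1.91 and -0.35, so the size of the fall differed between probes. Sox7, a factor downstream of Gata6, stood at -1.65 and -2.40 in NT and at -4.71 and -4.49 with Ino80 siRNA (-2.58 ± 0.25, adjusted p = 0.00319), with -0.30 on its other probe. Sox17, its close relative, went from -1.32 and -1.27 to -3.18 and -3.80 (-2.20 ± 0.26). Foxa2, a pioneer factor of endoderm, went from -1.37 and -2.31 to -3.71 and -3.96 (-1.99 ± 0.32, adjusted p = 0.0129), and its call was lost without Ino80 replicate 2 (adjusted p = 0.0717). In all 4 the groups were apart. Gata4 fell by 1.04 ± 0.23, whereas Hnf4a, a regulator of visceral endoderm, rose by 0.82 ± 0.21 from low levels of -6.30 and -6.02 to -5.18 and -5.49, a call kept in 2 of the 10 cases of 1 array left out.

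Of 8 receptors and effectors of the list that were tested, 4 fell and 0 rose. Pdgfra, the PDGF receptor used to mark primitive endoderm, had levels of -2.97 and -3.27 in NT and was not well above background on either Ino80 siRNA array (-6.60 and -6.51). It was at least 9.27-fold lower (adjusted p = 0.00152). This bound, like others written "at least", sets the NT mean against the higher of the probe's own signal and the lowest signal well above background on each dim array. Cubn, the endocytic receptor cubilin, went from 0.14 and -0.76 to -3.15 and -2.79 (-2.66 ± 0.29), and Amn, the protein that anchors cubilin in the membrane, from 0.28 and 0.30 to -0.89 and -0.77 (-1.12 ± 0.16). Dab2, an adaptor that links such receptors to clathrin, went from 0.08 and -0.12 to -1.15 and -1.10 (-1.10 ± 0.17). Each of these receptors and adaptors was lower on both knockdown arrays than on either NT array.

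Of 8 members tested that encode secreted or granule proteins, 2 fell, which completes the falls of the list. Dkk1, a secreted antagonist of Wnt that is also a member of the Wnt list, went from -1.72 and -2.46 in NT to -5.21 and -5.15 (-3.09 ± 0.23, adjusted p = 0.00215), with -1.66 on its other probe. Srgn, a proteoglycan of secretory granules that blood cells also make, went from 0.79 and 0.58 to -3.07 and -1.67 (-3.05 ± 0.52, adjusted p = 0.0144). Its knockdown arrays differed by more than those of any gene above, and the call was lost without NT replicate 2 (adjusted p = 0.0613). The 13 members that did not pass were spread around 0, from -0.91 for Apoe to 1.12 for Foxa1. The number of lower members was 8 without Ino80 replicate 2, 9 without NT replicate 2, and between 10 and 13 without any other array. The list median relative to all genes lay between -1.04 and -0.42 over the alternatives with all samples or with 1 array left out. In bulk RNA, fewer cells of a type and less RNA per cell cannot be told apart. The summed linear level of the list was 115 and 144 in NT and 75.9 and 88.1 with Ino80 siRNA. This sum, like those of other lists below, is weighted to the brightest probes. The falling members whose levels are given above add little to it, so it does not describe their fall.

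Genes of the basement membrane, a sheet that primitive endoderm lays down in large amounts, were split. Of 29 tested 6 fell (20.7%) and 2 rose (6.9%), beside 4.76% and 7.5% of all genes, with a median of 0.15. Col4a2 went from 0.45 and 0.62 in NT to -1.38 and -1.39 (-1.92 ± 0.15, adjusted p = 0.00215, other probe -1.91), and its partner chain Col4a1 from 0.51 and 0.75 to -0.79 and -0.96 (-1.50 ± 0.16). Both encode the type IV collagen of the sheet. Lama1, the laminin alpha chain of early embryos, went from 0.88 and 1.05 to -0.89 and -1.16 (-1.99 ± 0.18). All 3 were lower on both knockdown arrays, and their calls held without any 1 array. Nid1, which links laminin to collagen IV, fell by 1.03 ± 0.22, the integrin Itga5 fell by 1.46 ± 0.35, and Lama3 fell by 1.41. Lama4 (0.89 ± 0.20) and Lamb3 (0.72 ± 0.17) rose. The partner chains Lamb1 (0.00) and Lamc1 (-0.29) did not pass. The lower count was 3 without NT replicate 2 or Ino80 replicate 2 and 4 or 5 without any other array, and the higher count was 0 or 1 whichever array was left out.

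Factors of the naive pluripotency network fell more often than they rose. Of 37 tested 17 (45.9%) were lower and 2 higher, with a median of -0.74, or -0.91 relative to all genes. Tfcp2l1, a target of LIF signalling that sustains naive cells, had levels of 0.67 and 0.94 in NT and -1.88 and -1.67 with Ino80 siRNA (-2.58 ± 0.16, adjusted p = 0.00152). Tbx3, another factor that acts below LIF, went from 3.02 and 3.24 to 0.22 and 0.97 (-2.54 ± 0.32, adjusted p = 0.0062). Nanog went from 2.97 and 3.42 to 1.71 and 1.98 (-1.35 ± 0.20, adjusted p = 0.011). All 3 were lower on both knockdown arrays, and the calls held without any 1 array. Gbx2, a LIF target, fell by 1.18 ± 0.13 and Tcl1, a coactivator of the kinase Akt, fell by 1.89 ± 0.30, and both calls held in the same way.

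The core factors moved unequally. Pou5f1 went from 5.22 and 5.53 in NT to 4.61 and 4.65 (-0.74 ± 0.15, adjusted p = 0.0245), and Sall4, which binds with it, fell by 0.63 ± 0.14. Sox2, at 3.48 and 3.33 in NT and 3.05 and 3.50 with Ino80 siRNA, overlapped between the groups and did not pass (-0.13 ± 0.18, adjusted p = 0.652). Esrrb, an orphan nuclear receptor of the network, went from 4.57 and 5.18 to 3.08 and 3.45 (-1.61 ± 0.28, adjusted p = 0.0153). Klf4 went from 5.63 and 5.73 to 4.17 and 4.77 (-1.21 ± 0.20) and Klf5 fell by 1.16 ± 0.18, whereas Klf2 gave -0.07 and did not pass. Zfp42 (Rex1), a common marker of the naive state, was at 7.02 and 6.93 against 6.01 and 6.46 and missed the threshold (-0.74 ± 0.19, adjusted p = 0.0508). The 2 members that rose were Cdh1, the epithelial cadherin of stem cell colonies (0.64 ± 0.13), and Dppa3, a maternal and naive marker (1.43 ± 0.37). These 2 calls were both lost with each array centred on its median.

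Other calls of the list were lost without single arrays. That of Sall4 was kept in 2 of 10 cases. Those of Pou5f1 and Esrrb were lost without NT replicate 2, Ino80 replicate 1 or Ino80 replicate 2, with a highest adjusted p of 0.0927 and 0.0659, that of Klf4 without NT replicate 2 (0.062), and that of Klf5 without Ino80 replicate 2 (0.0607). The number of lower members was 7 without NT replicate 2 or Ino80 replicate 2, 11 without Ino80 replicate 1, and 12 to 16 without any other array. The median relative to all genes lay between -0.94 and -0.66 over the alternatives. The summed linear level of the list was 1170 and 1260 in NT and 807 and 904 with Ino80 siRNA.

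**Figure D2:**
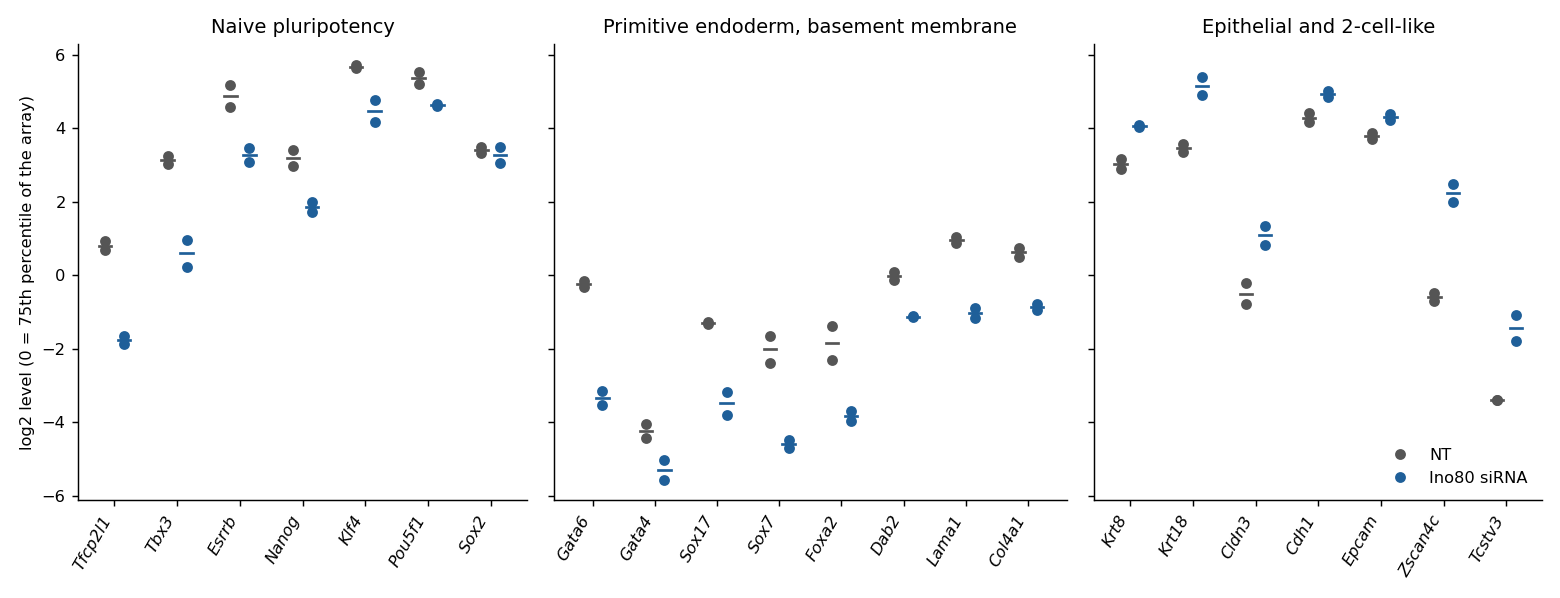
Levels (log2 signal relative to the 75th percentile of the array) of genes of pluripotency, of primitive endoderm and basement membrane, and of epithelial and 2-cell-like genes, with 1 point per array and a bar at the mean of each group (NT grey, Ino80 siRNA blue, n = 2 arrays each). Gata6 stands between -0.31 and -0.15 in NT and between -3.54 and -3.16 with Ino80 siRNA, whereas the points of Sox2 overlap.

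Genes of the primed epiblast, the state that follows the naive one in the embryo, were more often higher. Of 23 tested 7 (30.4%) rose, beside 7.5% of all genes, and 2 fell, with a median of 0.52. Otx2, a transcription factor that drives the exit from the naive state, went from 0.38 and 0.54 in NT to 1.62 and 1.65 (1.17 ± 0.13, adjusted p = 0.00432), and Sall2 from 0.83 and 0.64 to 1.89 and 1.86 (1.14 ± 0.13). Pou3f1 (Oct6) went from 4.80 and 4.24 to 6.02 and 6.07 (1.52 ± 0.22). All knockdown arrays were above the NT arrays, and the calls of Otx2 and Sall2 held without any 1 array while that of Pou3f1 was lost without Ino80 replicate 2 (adjusted p = 0.052). Fgf5, the growth factor that defines the epiblast after implantation, went from -0.76 and -0.88 to 0.10 and 0.87 (1.30 ± 0.25, adjusted p = 0.0216) and was lost without NT replicate 2 or Ino80 replicate 2. The de novo DNA methyltransferase Dnmt3b (0.69 ± 0.11), Krt18 and the kinase Pim2 (1.10) were the other members that rose. Nodal (-0.85 ± 0.18) and Foxa2 fell, although both count as primed markers, and Foxa2 is in the endoderm list as well. The members T (0.81, adjusted p = 0.152) and Eomes (0.30) did not pass. Members called higher numbered 4 without Ino80 replicate 2, 5 without NT replicate 2 and 6 or 7 without any other array, and with median scaling it was 4. The lower count was 0 without Ino80 replicate 2 and 1 without either NT array.

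Epithelial genes rose together with some genes of fibroblasts. Of 30 genes of adhesion and of the epithelial-mesenchymal transition 10 rose (33.3%) and 4 fell (13.3%), beside 7.5% and 4.76% of all genes. Of the 20 epithelial members 8 rose. The keratins Krt8 and Krt18, which pair in simple epithelia, went from 2.90 and 3.16 to 4.03 and 4.09 (1.02 ± 0.14) and from 3.36 and 3.58 to 4.89 and 5.41 (1.68 ± 0.23). The tight junction genes Cldn7 (1.24 ± 0.12), Cldn3 (1.59 ± 0.29) and Ocln (1.03 ± 0.15) rose, and so did Epcam (0.52), Dsp (0.94, with a kept probe of opposite sign) and Cdh1. Zeb1, a repressor of epithelial genes, went from -2.22 and -2.37 to -3.75 and -3.99 (-1.58 ± 0.22). The gap junction gene Gjb5, which is epithelial as well, fell by 2.40 ± 0.14. Of 10 mesenchymal regulators 2 fell and 2 rose, Twist2 (1.11) among the rises, while Snai1, Snai2, Twist1 and Zeb2 did not pass.

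In addition, 9 of 31 markers of fibroblast feeder cells rose (29.0%) and 2 fell (6.45%), beside 7.5% and 4.76% of all genes. Tagln, an actin-binding protein, went from 2.66 and 2.95 to 4.21 and 4.26 (1.43 ± 0.15), Cnn1, a calponin, from 0.68 and 0.77 to 2.05 and 2.36 (1.48 ± 0.16), and Cd44, a hyaluronan receptor, from -4.21 and -4.56 to -2.95 and -2.92 (1.44 ± 0.15). The matrix gene Dcn rose by 2.30 ± 0.32 from -5.24 and -5.13. The collagen genes Col1a1 (1.02, other probe 0.05) and Col5a1 (0.78, other probe 0.83) rose. Col1a2 (0.69), Col3a1 (0.16), Thy1 (-0.20) and Vim (-0.47) did not pass, and Fn1 fell by 0.91 ± 0.21. The summed linear level of the 31 markers was 85.4 and 84.6 in NT and 89.8 and 86.5 with Ino80 siRNA, and 27 of them were well above background on both NT arrays. The part of such cells in the epithelial and matrix results was not tested. The higher count of the adhesion list was 2 without Ino80 replicate 2, 5 without NT replicate 2, 6 without an array of Ino80b or Ino80c and 7 to 9 without any other array, and its lower count was 2 without Ino80 replicate 2. That of the feeder list was 3 without Ino80 replicate 2, 5 without NT replicate 2 and 6 to 9 without any other array, and its lower count was 0 or 1 whichever array was left out. With median scaling the higher counts of these lists were 6 and 5.

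Markers of trophectoderm, the outer layer of the blastocyst, moved both ways. Of 28 tested 6 were higher and 6 lower (21.4% each), beside 7.5% and 4.76% of all genes. Cdx2, its main regulator, went from -3.52 and -3.67 to -2.85 and -2.95 (0.69 ± 0.12), and Esx1 (1.37 ± 0.25), Bmp8b and the keratins Krt7 (1.16), Krt8 and Krt18 rose. The regulators Gata2 (-1.01 ± 0.19), Klf5 and Tead4 (-1.0) fell, as did Gjb5 and Lgals3. Lgals3, a galectin, went from 4.26 and 4.18 in NT to 1.59 and 1.43 (-2.71 ± 0.18, adjusted p = 0.00175), with both knockdown arrays far below both NT arrays. Calls upwards numbered 2 without Ino80 replicate 2, 3 without Ino80 replicate 1 and 4 or 5 without any other array, and the lower count was 3 without Ino80 replicate 2, 4 without NT replicate 2 and 5 or 6 otherwise.

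Receptors of the LIF pathway, which sustains naive stem cells through Stat3, fell slightly. Lifr went from -0.86 and -0.86 to -1.42 and -1.64 (-0.67 ± 0.14), with a kept probe of opposite sign, and its partner Il6st (gp130) from 0.91 and 1.17 to 0.39 and 0.39 (-0.65 ± 0.13). Socs2, an inhibitor induced by cytokines, went from 2.68 and 2.79 to 1.47 and 1.37 (-1.31 ± 0.12, adjusted p = 0.00257), and its call held without any 1 array. Stat3 itself was at 2.23 and 2.06 against 2.21 and 2.29 and did not pass (0.10 ± 0.17). Of 22 members tested 5 fell (22.7%) and 3 rose (13.6%), beside 4.76% and 7.5% of all genes. The other calls were Pias3 (-0.94) and Tyk2 (-0.64) lower and Jak2 (0.87), Socs1 (0.74) and Stat5b (1.21) higher. Jak2 and Stat5b have a kept probe of opposite sign (-0.61 and -0.25). Without NT replicate 2 or Ino80 replicate 2 the counts were 1 lower and 0 higher. The lower count was 3 without an Ino80e array and 4 or 5 otherwise, and the higher count was 0 or 1 without any array of the other knockdowns and 3 without NT replicate 1 or Ino80 replicate 1.

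In the BMP pathway the ligand Bmp4 fell and Bmp8b rose. Bmp4, a ligand that holds back neural fate in stem cells, went from 2.54 and 2.96 in NT to 0.20 and -0.05 (-2.67 ± 0.17, adjusted p = 0.00175). Bmp8b, a ligand of the extraembryonic ectoderm, went from -2.64 and -2.55 to -0.91 and -0.93 (1.68 ± 0.12, adjusted p = 0.00215). They had the lowest adjusted p-values of the list, and both held without any 1 array. The target Id1 was at 3.50 and 2.45 against 1.20 and 1.70 and missed the threshold (-1.53 ± 0.42, adjusted p = 0.0562), and the targets Id2 (0.12) and Id3 (-0.30) did not pass either. Of 36 members 3 rose and 3 fell (8.33% each), beside 7.5% and 4.76% of all genes. The receptor Bmpr2 (0.63) and the transducer Smad1 (0.70, with a kept probe of opposite sign) were higher, and Gata2 and the antagonist Grem1 lower. Grem1 was not well above background with Ino80 siRNA. Both counts were 1 without NT replicate 2 or Ino80 replicate 2, the higher count was 5 without NT replicate 1 and 1 or 2 in the remaining cases, and the lower count was 2 or 3 in them.

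Genes that respond to FGF and ERK, which push stem cells out of the naive state, fell in part. The targets Etv4 (-0.73 ± 0.14) and Etv5 (-0.70 ± 0.18) fell, while the feedback genes Dusp6 (0.54) and Spry4 (-0.43) did not pass. Among the ligands Fgf17 went from -0.13 and 0.11 to -1.09 and -1.64 (-1.35 ± 0.21) and Fgf10, well above background on 1 of the 2 Ino80 siRNA arrays, fell by 1.78 ± 0.29, whereas Fgf5 rose as described. Shc1 (-0.72) and the receptor Fgfr1 (-0.76) were the other falls. This makes 6 lower (17.6%) and 1 higher (2.94%) of 34, beside 4.76% and 7.5% of all genes. Falls numbered 1 without NT replicate 2, 2 without Ino80 replicate 2, 3 without an array of the other knockdowns, and 4 and 7 without Ino80 replicate 1 and NT replicate 1. The higher count was 0 without NT replicate 2 or Ino80 replicate 2 and 2 without NT replicate 1.

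Ligands of the Nodal and activin pathway went different ways. Inhbb, a subunit of activin B, went from 2.04 and 1.54 to -0.22 and 0.41 (-1.69 ± 0.27, adjusted p = 0.0122, held without any 1 array) and Nodal from 4.05 and 3.85 to 3.22 and 2.98. Inhba, the subunit of activin A, rose from -5.20 and -5.81 to -3.97 and -4.18 (1.43 ± 0.30), and Gdf1, a partner of Nodal, by 0.88 ± 0.17. The antagonists Lefty1 (0.14) and Lefty2 (-0.22) and the co-receptor Tdgf1 (0.02) did not pass. Of 26 members 4 rose (15.4%) and 2 fell (7.69%), beside 7.5% and 4.76% of all genes. The receptor Tgfbr2 (0.97) was among the rises. The number higher was 0 without NT replicate 2 or Ino80 replicate 2, 2 without Ino80 replicate 1 or an Ino80e array and 3 or 4 otherwise, and the lower count was 1 without either NT array or Ino80 replicate 2.

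Of 41 members of the Wnt pathway 6 rose (14.6%) and 4 fell (9.76%), beside 7.5% and 4.76% of all genes. Inhibitors and receptors made up 9 of these 10. With median scaling 2 rose and 6 fell, so the balance of direction depended on the scaling. The secreted antagonists Dkk1, Sfrp1 and Notum fell. Sfrp1, which binds Wnt outside the cell, went from 1.47 and 1.57 to -0.17 and 0.11 (-1.55 ± 0.14), and Notum, an enzyme that inactivates Wnt, from 0.17 and 0.09 to -1.12 and -0.95 (-1.17 ± 0.15). The secreted antagonist Sfrp2 (0.85 ± 0.19) and Nkd2, an inhibitor inside the cell (1.30 ± 0.27), rose. The receptor Fzd5 went from -0.28 and -0.35 to -1.85 and -2.05 (-1.63 ± 0.14) and its relative Fzd2 from 0.88 and 1.10 to 2.05 and 2.01 (1.03 ± 0.13), so receptors of the same family moved in opposite directions, and Fzd1 (1.05) and the co-receptor Lrp5 (0.78) rose. The calls of Dkk1, Sfrp1, Notum, Fzd5 and Fzd2 held without any 1 array. Among 8 Wnt ligands and 7 transducers limma called 0, and 2 and 3 of them had an unadjusted p under 0.05. Higher calls totalled 2 without NT replicate 2 or Ino80 replicate 2, 3 without an array of Ino80b or Ino80e and 4 or 5 otherwise, and the lower count stayed at 4 or 5.

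In the Notch pathway 7 of 23 members rose and 1 fell, beside 7.5% and 4.76% of all genes, and with median scaling 4 rose and 1 fell. The ligand Jag2 went from 0.03 and 0.05 to 0.93 and 1.10 (0.98 ± 0.12, adjusted p = 0.00529, held without any 1 array). The receptor Notch3 went from 1.49 and 1.43 to 2.13 and 2.37 (0.79 ± 0.13) and the feedback gene Nrarp rose by 0.95 ± 0.17. Dll3 (0.72), Hey1 (0.98), Notch2 (0.94) and Heyl (2.17) also rose, although Notch2 and Heyl each have a kept probe of opposite sign and Heyl was not well above background in NT. Notch4 fell by 0.99, and the target Hes1 was at -1.19 without passing (adjusted p = 0.051). The higher count was 1 without Ino80 replicate 2, 2 without NT replicate 2 and 5 to 7 otherwise, and the call of Notch4 was kept in 1 of the 10 cases, without NT replicate 1.

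**Figure D3:**
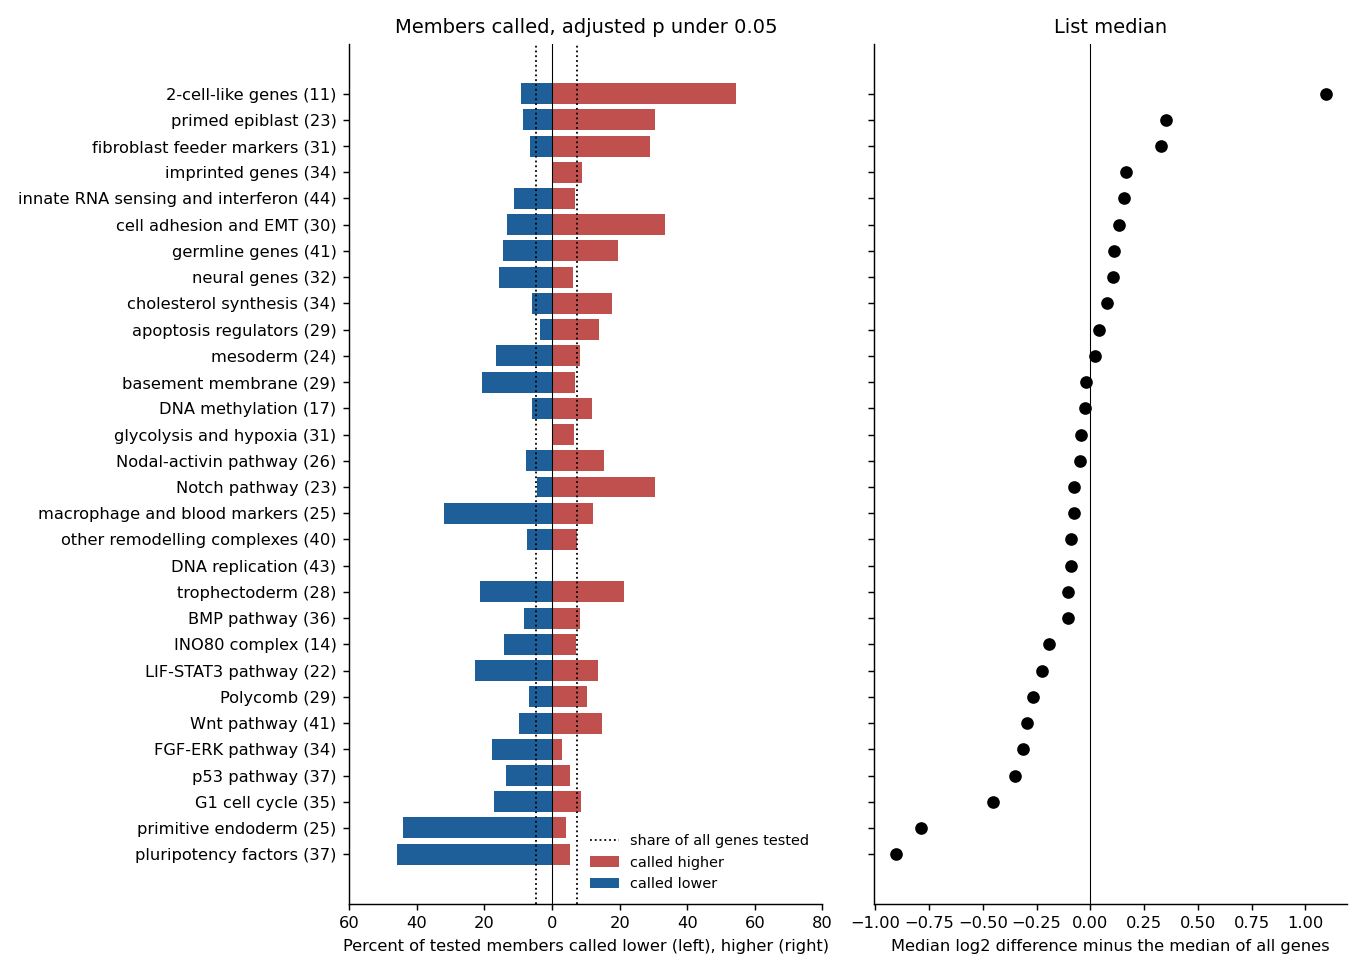
For each gene list, the left panel shows the percentage of tested members called lower (blue) and higher (red), with dotted lines at the shares over all genes (4.76% and 7.5%), and the right panel the list's median log2 difference minus that of all genes. Pluripotency factors (-0.91) and primitive endoderm lie farthest to the left and 2-cell-like genes farthest to the right.

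Genes of the 2-cell-like state, a rare condition of stem cells that resembles the embryo at genome activation, rose. Of 28 listed genes 11 could be tested, with a median of 1.26. Of these 6 rose (54.5%) and 1 fell (9.09%), beside 7.5% and 4.76% of all genes. The members that could not be tested had no probe that passed the filter on dim signal or none on the array, so the share describes the detected genes. Zscan4c, a zinc finger protein tied to telomere upkeep, went from -0.48 and -0.72 in NT to 2.47 and 2.00 (2.83 ± 0.22, adjusted p = 0.00215), and Usp17la, a deubiquitinating enzyme, from -1.96 and -2.39 to 0.75 and 0.57 (2.83 ± 0.25). Tcstv3 went from -3.40 and -3.39 to -1.08 and -1.78 (1.97 ± 0.26) and Tcstv1 from -2.0 and -2.45 to 0.22 and -0.48 (2.09 ± 0.33). Both knockdown arrays were above both NT arrays in all 4. These families hold near-identical copies, so a signal may belong to any member. Zfp352 (1.29 ± 0.31) and Sp110 (0.99 ± 0.18) were the other rises, while Zfp750 fell by 1.5 ± 0.25. Members called higher numbered 3 without NT replicate 2 and 5 or 6 without any other array, the lower count was 0 without NT replicate 2, and the median relative to all genes lay between 0.56 and 1.44. Zscan4c also stood above NT in the other knockdowns, which share the NT arrays (2.24 with Ino80b, 2.24 with Ino80c and 1.68 with Ino80e siRNA), and the direct contrast with their mean did not pass (0.78, adjusted p = 0.098). The list median against NT was 1.63 with Ino80b, 1.60 with Ino80c and 0.92 with Ino80e siRNA, beside 1.26 with Ino80 siRNA. In the direct contrast 5 of the 11 members lay below the mean of the other knockdowns, with a median of 0.11 where all genes had -0.03. There limma called 0 of the 11.

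Germline genes were mixed, with 8 of 41 higher (19.5%) and 6 lower (14.6%), beside 7.5% and 4.76% of all genes. With median scaling the counts were 4 and 5. The piRNA and transposon control genes Tdrd1, which went from -0.43 and -0.85 to 0.93 and 1.14 (1.68 ± 0.17), Ddx4 (1.34 ± 0.22), Tdrd5 (0.81 ± 0.15) and Piwil2 (1.00) rose, whereas Piwil4, of the same pathway, went from -3.26 and -3.31 to -4.98 and -4.97 (-1.69 ± 0.19). Spo11, the enzyme that starts meiotic recombination, went from -5.76 and -5.32 to -3.57 and -3.51 (2.00 ± 0.33), and Mlh3, a mismatch repair protein of meiosis, from 0.11 and 0.04 to -1.34 and -1.42 (-1.45 ± 0.12). Of the X-linked homeobox genes Rhox5 went from 3.07 and 2.66 to 0.64 and 0.76 (-2.16 ± 0.20, adjusted p = 0.00314), Rhox6 rose by 0.95 ± 0.14 and Rhox9 gave 0.14. Neighbours of the same cluster thus differed in direction. Kit, the receptor of stem cell factor, fell by 1.66 ± 0.37, and the remaining calls were Ifitm3 (-0.82) and Dnd1 (-0.54) lower and Slc25a31 (0.57) and Taf7l (0.94) higher. Calls upwards numbered 1 without Ino80 replicate 2, 4 without NT replicate 2 and 7 to 9 otherwise, and the lower count was 3 without either of these arrays, 4 without an array of Ino80b or Ino80c, and 5 to 8 otherwise.

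Among 17 genes of DNA methylation 1, Tet2, fell and 2 rose, Dnmt3b among them, and neither rise kept its call with median scaling. Tet2, which oxidises methylated cytosine, went from -1.0 and -0.93 to -2.87 and -2.74 (-1.84 ± 0.17, adjusted p = 0.00266, held without any 1 array). Dnmt3b went from 4.51 and 4.48 to 5.18 and 5.20. The maintenance enzyme Dnmt1 (-0.24), its guide Uhrf1 (-0.26), Dnmt3a (0.56) and Dnmt3l (-0.33) did not pass. The higher count was 0 without NT replicate 2 or Ino80 replicate 2, 1 without Ino80 replicate 1, 5 without NT replicate 1 and 2 otherwise.

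Other remodelling and Polycomb genes moved at about the background share. Of 40 remodelling genes 3 rose and 3 fell. Smarcd3, a BAF subunit of heart and muscle, went from 0.06 and 0.35 to -1.64 and -1.38 (-1.72 ± 0.17, held without any 1 array), and Chd7, a remodeller of enhancers, rose from 2.85 and 2.71 to 3.81 and 4.12 (1.18 ± 0.15) with a kept probe of opposite sign. Of 29 Polycomb genes 3 rose (Pcgf5 0.92, Yaf2 1.32, Phc2 0.62) and 2 fell (Pcgf2 -1.58, Eed -0.54), and of 34 imprinted genes 3 rose (Dlk1 0.76, Osbpl5 1.21, Sgce 1.73). Every 1 of these counts was 0 or 1 without Ino80 replicate 2 and without NT replicate 2. Without NT replicate 1, 5 remodelling genes and 9 imprinted genes were higher, and the lower Polycomb count was 1 without Ino80 replicate 1 or an array of another knockdown.

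Genes of DNA replication and of the G1 phase were described apart. Of 43 DNA replication genes limma called 0, while 8 had an unadjusted p under 0.05, and the median was 0.08 beside 0.17 for all genes. Without NT replicate 1, 1 of them was higher and 2 lower, and with normexp background correction 2 and 1. Of 35 genes of the G1 phase 6 fell (17.1%, beside 4.76% of all genes) and 3 rose, with a median of -0.29, or -0.45 relative to all genes. Ccnd3, a D-type cyclin, went from 4.08 and 4.25 to 3.05 and 2.80 (-1.24 ± 0.14, held without any 1 array), and Cdkn2a, a locus that encodes inhibitors of the cell cycle, rose from -3.43 and -3.67 to -2.40 and -2.18 (1.26 ± 0.18). Of 37 genes of the p53 pathway 5 fell (13.5%) and 2 rose (5.41%), beside 4.76% and 7.5% of all genes. The calls were regulators and other targets such as Trp73 (-1.42 ± 0.24) and Mdm4 (-0.85 ± 0.13), while limma called 0 of 13 members of arrest and repair and 0 of 11 of apoptosis, of which 2 and 3 had an unadjusted p under 0.05. Of 29 apoptosis regulators 4 rose (13.8%) and 1 fell (3.45%), beside 7.5% and 4.76% of all genes. The survival gene Bcl2 went from -2.17 and -2.20 to -0.73 and -0.84 (1.40 ± 0.11, held without any 1 array). Over the 10 cases of 1 array left out, the G1 list had 1 to 8 lower and 0 to 6 higher members, the p53 list 0 to 6 and 0 to 4, and the apoptosis list 0 or 1 and 1 to 5. The lowest counts came without Ino80 replicate 2, and the highest lower counts without NT replicate 1.

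Genes of innate RNA sensing were called higher about as often as all genes. Of 44 tested 3 were higher (6.82%) and 5 lower (11.4%), beside 7.5% and 4.76% of all genes. The balance turned with spike-in scaling (6 and 3) and normexp correction (9 and 7). The list median relative to all genes lay between -0.04 and 0.24 over the alternatives. The 24 effectors tested had a median of 0.41, beside 0.17 for all genes. Oas1a and Oas2, sensors of double-stranded RNA, went from -1.92 and -1.70 to -4.20 and -3.91 (-2.25 ± 0.20) and from -2.61 and -2.53 to -3.78 and -3.77 (-1.20 ± 0.14). Ddx58, the sensor RIG-I, went from -0.28 and -0.07 to -1.61 and -1.43 (-1.34 ± 0.19). All 3 were lower on both knockdown arrays and held without any 1 array. The transcription factor Irf1 rose by 1.33 ± 0.21, Ifngr1 by 1.11 ± 0.22 and Isg15 by 1.01 ± 0.25, and these 3 calls were lost when either NT replicate 2 or Ino80 replicate 2 was left out, where the lower counts were 4 and 3. Without NT replicate 1, 7 were higher and 7 lower.

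Markers of macrophages and blood were tested as those of other cells that a culture could hold, and 8 of 25 were lower and 3 higher. Slc11a1, a metal transporter of phagocytes, went from -0.87 and -0.36 in NT to -4.29 and -4.08 (-3.57 ± 0.28, adjusted p = 0.00215), the largest fall among called genes with an established name that were well above background on all 4 arrays. Septin1 went from -0.31 and 0.58 to -3.0 and -3.17 (-3.22 ± 0.28), and the lysosomal genes Cd68 and Laptm5 fell by 1.98 ± 0.23 and 2.37 ± 0.33. The summed linear level of the 25 markers was 11.3 and 12.7 in NT and 7.08 and 7.46 with Ino80 siRNA. The defining leukocyte gene Ptprc (CD45) was not well above background on either NT array and was so on 1 Ino80 siRNA array. Cd14 and Fcgr3 rose by 1.01 and 0.84, the latter with a probe of opposite sign (-1.39). The part of such cells in any result was not tested. The lower count was 4 without NT replicate 2 or Ino80 replicate 2 and 7 or 8 otherwise, and the higher count was 0 without any of NT replicate 2 and the Ino80 arrays.

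Neuronal genes fell in part. Of 16 neuronal genes 5 fell, beside 4.76% of all genes, and of 16 neural progenitor genes 2 rose (12.5%), beside 7.5%. With only probes well above background on all arrays, the neural list had 5 higher and 4 lower members. Mapt, the microtubule protein tau, went from -0.11 and -0.29 to -2.73 and -2.27 (-2.30 ± 0.19, held without any 1 array), and Nes, the filament of neural progenitors, rose from 1.39 and 1.73 to 2.57 and 3.05 (1.24 ± 0.21). Islr2, not well above background with Ino80 siRNA, was at -5.46 and -5.03 in NT. Of 24 mesoderm genes 4 fell (16.7%), Evx1 (-1.67) and Mesp2 (-0.92) among them, and 2 rose (8.33%), beside 4.76% and 7.5% of all genes. Of 34 genes of cholesterol synthesis 6 rose (17.6%) and 2 fell (5.88%), beside 7.5% and 4.76% of all genes, and 1 and 2 with median scaling. Dhcr7, the last enzyme of the pathway, was at 1.00 ± 0.14 but with a probe of opposite sign, and the efflux pump Abca1 at -1.25 ± 0.19. Of 31 genes of glycolysis and hypoxia 2 rose (6.45%, beside 7.5% of all genes). Over the 10 cases of 1 array left out, the neural list had 3 to 5 lower and 0 to 3 higher members, the mesoderm list 0 to 5 and 0 to 3, the cholesterol list 0 to 2 and 0 to 6, and the glycolysis list 0 to 3 and 0 or 1. Without Ino80 replicate 2, these lists had 3, 0, 0 and 1 lower and 0, 1, 0 and 0 higher members.

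Large changes outside the lists were picked by size among called genes that have an established name and were well above background on all 4 arrays. Gpr83, a G protein-coupled receptor, went from 0.45 and -0.19 to -2.84 and -3.46 (-3.29 ± 0.30). Nkx6-3, a homeobox factor, went from -0.53 and -0.77 to -3.61 and -4.20 (-3.26 ± 0.22), and Mras, a GTPase of the Ras family, went from 2.54 and 2.56 to -0.31 and -0.46 (-2.94 ± 0.15). Myo1f, a class I myosin, went from 0.85 and 0.69 to -2.01 and -2.17 (-2.86 ± 0.13, adjusted p = 0.00122). These 4 held without any 1 array. Slc4a7, a bicarbonate transporter, also fell (-3.27 ± 0.68), but its NT arrays were far apart, at 3.70 and 5.81, and the call was lost without NT replicate 2 or Ino80 replicate 2.

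Upwards, Slc39a8, a metal importer, went from -1.15 and -1.46 to 0.89 and 1.11 (2.30 ± 0.18, adjusted p = 0.00215). Figla, a transcription factor of oocytes, went from -4.88 and -4.71 to -2.23 and -2.90 (2.23 ± 0.33), and Creb5 rose by 2.35 ± 0.40. Pramel39 (2.21 ± 0.23), Pramel37 (2.13 ± 0.20) and Lgals6 (2.11 ± 0.23) belong to families with similar copies, as the 2-cell-like genes do. The calls of all of these but Creb5, lost without NT replicate 2 or Ino80 replicate 2, held without any 1 array. Among called genes that were not well above background in NT, 70 in all, Lce1d, a gene of the cornified skin envelope, was at least 3.06-fold higher and Adamts6, a secreted protease, at least 2.68-fold higher. Lce1d and Adamts6 passed the filter on dim signal only through the Ino80 siRNA arrays. In the other direction 28 called genes were not well above background with Ino80 siRNA, Pdgfra among them.

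A direct contrast set lowering the ATPase against lowering an accessory subunit, without the NT arrays. The Ino80c and Ino80e arrays lay on slide 3, so for 4 of the 6 arrays on the other side slide and siRNA cannot be told apart. Against the mean of Ino80b, Ino80c and Ino80e siRNA 290 genes (1.4%) were called, 68 higher (0.329%) and 222 lower (1.07%). With the deposited table the balance turned, with 921 higher and 333 lower. Of the 222, 201 were also called lower against NT, and of the 68, 62 were also called higher against NT. Both contrasts use the same Ino80 arrays. Without Ino80 replicate 2 there were 36 calls.

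In that contrast the primitive endoderm list had 10 of 25 members lower, beside 1.07% of all genes, and 19 of 25 below the mean of the others. The median difference over all genes was -0.03, so a majority of all genes lay below that mean as well. Gata6 was lower by a log2 difference of -2.34 (adjusted p = 0.00427), and Dkk1 of -2.66 (0.00427). Pdgfra, dim on both Ino80 siRNA arrays, was at least 6.40-fold lower (adjusted p = 0.00427). These 3 calls held without any 1 array. Cubn (-2.58), Sox7 (-1.92), Foxa2 (-2.54), Srgn (-2.49), Sox17 (-1.42), Dab2 (-0.98) and Amn (-0.76) were lower too. Of these, Cubn was lost without Ino80 replicate 2 (adjusted p = 0.0535) and Sox7 and Foxa2 without either Ino80 array, while Srgn and Amn were lost whichever array was left out, and Sox17 and Dab2 were kept in 2 and 4 of 10 cases. Side by side against the shared NT arrays, the list median was -0.62 with Ino80 siRNA, -0.37 with Ino80b, -0.06 with Ino80c and 0.29 with Ino80e siRNA, where all genes had 0.17, 0.13, 0.26 and 0.19. Cubn, for example, was at -2.66, -1.75, 0.25 and 1.27 in that order.

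Of 37 members of the pluripotency list 31 lay below the mean of the other knockdowns. The list median was -0.26, where primitive endoderm had -0.48 and all genes -0.03. The difference between the lists was not tested. In the contrast 2 members, Tfcp2l1 (-1.26, adjusted p = 0.011) and Gbx2 (-0.99, adjusted p = 0.0113), were lower with Ino80 siRNA than in the other knockdowns, and both were lost without Ino80 replicate 2, Tfcp2l1 without Ino80 replicate 1 as well. Nanog (-0.48, adjusted p = 0.22), Esrrb (-0.57, 0.28) and Pou5f1 (-0.15, 0.58) did not pass. Of other genes described above, Rhox5 (-2.54, adjusted p = 0.00427), Nkx6-3 (-2.06), Mras (-1.69) and Myo1f (-1.61) were lower than in the other knockdowns. Lce1d, not well above background on any of those 6 arrays, passed the filter only through the Ino80 siRNA arrays and was at least 2.22-fold higher. These 5 calls held without any 1 array. Slc39a8 (1.54), Stmn4 (1.42), Bcl2 (0.84) and Otx2 (0.91) were higher, each lost without at least Ino80 replicate 2. Ino80 itself was lower by 1.36 than in the cells where its gene was not the target.

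**Figure D4:**
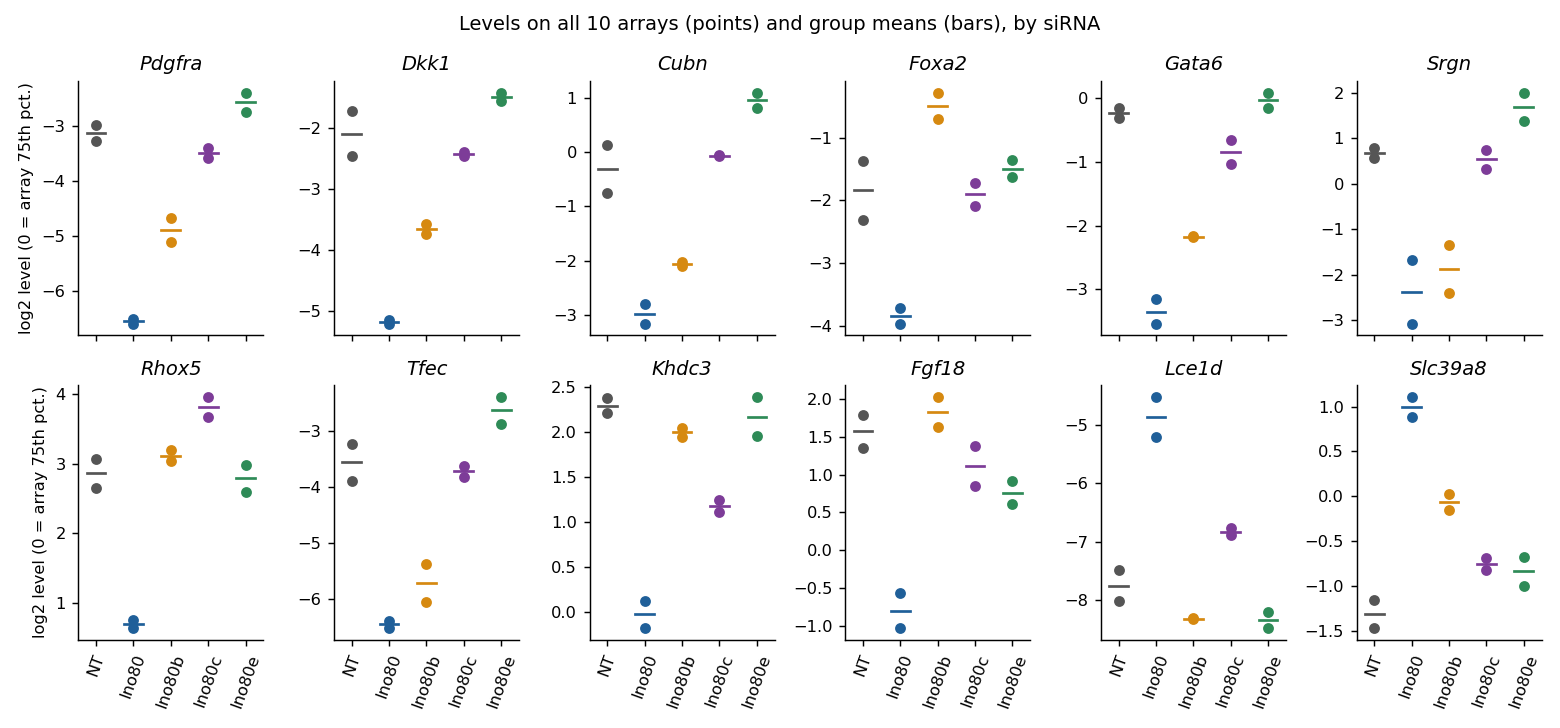
Levels (log2 signal relative to the 75th percentile of the array) of 12 genes on all 10 arrays, grouped by siRNA, with 1 point per array and a bar at the mean of each group (n = 2). Gata6, Dkk1, Pdgfra, Cubn, Srgn and Tfec are low with both Ino80 and Ino80b siRNA, which share slide 2. Of these, all but Srgn are lower on both Ino80 siRNA arrays than on any other array. Rhox5, Foxa2, Khdc3 and Fgf18 are also below every other array on the Ino80 siRNA arrays. Pdgfra on the Ino80 siRNA arrays and Lce1d on all other arrays were not well above background.

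The contrast with Ino80b siRNA lay within slide 2. It called 14 genes (0.0678%), of which 2 were higher (0.00968%) and 12 lower (0.0581%) with Ino80 siRNA. Foxa2 was at -3.71 and -3.96 with Ino80 siRNA and lower by 3.34 on average than with Ino80b siRNA (log2 difference -3.34, adjusted p = 0.0302). Rhox5 (-2.42, adjusted p = 0.0193), Khdc3, a protein of the oocyte and early embryo (-2.02, 0.0257), Fgf18 (-2.62, 0.0431) and Ino80 itself (-1.52, 0.0193) were lower as well. Lce1d, not well above background on either Ino80b array, was at least 2.17-fold higher (adjusted p = 0.0193), and it passed the filter only through the Ino80 siRNA arrays. Each count with 1 array left out was between 0 and 9, and of the genes just named Lce1d was kept in 6 of 10 cases, Rhox5 in 4, Foxa2, Khdc3 and Ino80 in 2 and Fgf18 in 0. The differences of Gata6 (-1.18, adjusted p = 0.15, 95% interval -1.63 to -0.73), Dkk1 (-1.53, 0.14) and Pdgfra (-1.66, 0.074) from Ino80b siRNA did not pass, so for these a difference between the 2 subunits was not shown over all genes within the slide.

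The sequences before the start sites were then compared between called groups. The windows of Dkk1 (chr19:30549497-30549746, minus strand, capitals TATAAA) and of Rhox5 (chrX:37754358-37754607, plus strand, capitals CCAAT in either orientation, 2 of whose matches overlap) are shown as genes that differed from the other knockdowns without any 1 array.
Dkk1: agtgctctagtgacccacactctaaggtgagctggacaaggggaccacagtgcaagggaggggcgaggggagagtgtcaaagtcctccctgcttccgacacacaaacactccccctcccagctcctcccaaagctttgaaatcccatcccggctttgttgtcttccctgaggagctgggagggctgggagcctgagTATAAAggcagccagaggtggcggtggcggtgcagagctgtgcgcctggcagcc
Rhox5: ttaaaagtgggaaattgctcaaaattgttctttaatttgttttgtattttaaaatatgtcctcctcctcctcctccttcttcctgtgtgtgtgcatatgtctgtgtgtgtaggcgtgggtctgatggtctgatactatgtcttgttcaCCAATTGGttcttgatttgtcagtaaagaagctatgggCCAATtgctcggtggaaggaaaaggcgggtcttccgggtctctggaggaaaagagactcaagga
RefSeq (GRCm38.p6) held a window for 12095 of the genes tested, 15313 windows in all, and a gene with several starts counts once for each, so windows can overlap. The letters were searched on both strands. The octamer TTTGCAT was in 3.39% of all windows, in 3.77% of the 876 windows of genes called lower and in 3.29% of the 1248 of genes called higher. The SOX letters CATTGT were in 7.11%, 6.16% and 6.33%, AGATAA, which GATA factors bind, in 6.86%, 7.31% and 6.33%, and AAGATGG, letters of YY1, a partner of INO80, in 4.17%, 4.57% and 3.21%. TATAAA was in 8.29%, 6.62% and 8.01%. CCAAT was in 35.0%, 34.0% and 28.3%, and the GC box GGGCGG in 52.3%, 50.7% and 57.6%. The widest gaps from all windows were those of genes called higher, in CCAAT (28.3% against 35.0%) and the GC box (57.6% against 52.3%). Differences between these shares were not tested. In the pluripotency list the octamer was in 5 of 34 windows (14.7%), namely of Sox2, Spp1, Zfp42 and, through overlapping windows, Nanog. A match is a description of the letters and not a bound site.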

How the data were processed

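J1 cell RNA was measured on Agilent 4x44K arrays. Only the green channel is in the files, whereas the labels give the dye as Cy5. Per the file headers, Feature Extraction 9.5.3.1 made the deposited intensity values: a processed signal from which local background was subtracted and a spatial trend removed, with no scaling from array to array. A separate table deposited by the authors has log2 values. Compared with the scanner data, every column was the log2 mean signal shifted by 1 constant (column medians 6.83 to 6.93). This settles scale and direction and shows that genes were left uncentred, but how the constants arose is unknown here.

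Control spots and outlier flags were removed, spots of a probe averaged, and each array's 75th percentile subtracted after the log2 step. Of 41174 probes 31 lacked an unflagged spot on some array. A probe entered if some group had it well above background on both its arrays. RefSeq (GRCm38.p6) named 22951 probes through their accession and 18223 kept the name of the array design. The kept probe of highest mean signal stood for a gene. Among 91 called list genes with several kept probes, 16 had a probe of opposite sign. Probe positions are those of the files, on mm7.

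The model (limma 3.58.1 in R 4.3.3, lmFit and eBayes) took all 10 arrays with group as its only term, because 4 arrays alone leave few degrees of freedom. It had 5 residual degrees of freedom. P-values are two-sided, with Benjamini-Hochberg adjustment over 20663 genes, errors are standard errors of the fit, and n is 2 arrays per group. The script was tested on simulated data. No set test was run. Alternatives covered background correction, scaling, the dim-probe filter, the probe rule, the prior, array weights, a replicate block and each array left out.

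The naming rule took Ino80, up to 5 called members of a list in each direction by adjusted p, and any member of the INO80, pluripotency, LIF, BMP, FGF, Nodal, 2-cell-like and DNA methylation lists. It also took the 12 largest rises and falls well above background on all 4 arrays, the 6 largest of each with only a bound, the 8 largest differences from the other knockdowns and from Ino80b siRNA, and the 6 most even changes of each direction, passing over predicted genes in these groups. Some genes that the rule takes are not reported here. Other genes named complete the calls of a list or were chosen after their values were seen. The members and the 30 lists were chosen with earlier results of these data known.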

Additional observations from a re-analysis of the deposited data

Results flagged for a closer look

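Genes are given here because a contrast of Ino80 siRNA with other knockdowns tested the difference itself and passed (limma, log2 differences, adjusted p under 0.05). Against the mean of the other 3 knockdowns, Slc39a8 (1.54), Stmn4 (1.42), Dusp8 (1.11) and Chrnb1 (1.08) were higher. Lce1d, Olah and Adamts6 were not well above background on any NT array or any of the 6 arrays of the other knockdowns. Their fitted differences of 2.95, 2.66 and 1.72 therefore stand only as at least 2.22-fold, 1.83-fold and 1.94-fold higher. These genes passed the filter on dim signal only through the Ino80 siRNA arrays, where they are high. The filter was not applied again when an array was left out. Ino80b RNA was higher by 1.80, and its level with Ino80 siRNA did not differ from NT by the test (0.30, adjusted p = 0.593). Ino80b is the target of 1 of the siRNAs on the other side. Its RNA lay below NT with Ino80c (-1.11) and Ino80e siRNA (-1.39) as well as with its own siRNA (-2.003). The cause of its lower level in cells where it was not the target was not tested. Lower were Dkk1 (-2.66), Cubn (-2.58), Foxa2 (-2.54), Rhox5 (-2.54), Srgn (-2.49), Tfec (-2.43, well above background on 1 of the 2 Ino80 arrays) and Gata6 (-2.34). Pdgfra (fitted difference -2.90) was dim on both Ino80 arrays and was at least 6.40-fold lower. Of these 16 genes Lce1d, Pdgfra, Dkk1, Rhox5 and Gata6 kept the call without any 1 of the 10 arrays, and Srgn lost it whichever array was left out, in 10 of 10 cases.

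Against Ino80b siRNA on the same slide, Lce1d (fitted difference 3.44) was dim on both Ino80b arrays and was at least 2.17-fold higher. Lower were Foxa2 (-3.34), Fgf18 (-2.62), Rhox5 (-2.42), Fbp1, a gluconeogenic enzyme (-2.11), Nrcam, a neural adhesion molecule (-2.04), and Khdc3 (-2.02). Kera and Akr1d1 were well above background only on the 2 Ino80b arrays, through which they passed the filter. With fitted differences of -3.49 and -3.12, they were at least 2.69-fold and 2.30-fold lower with Ino80 siRNA. Nrcam did not pass against NT (-0.57, adjusted p = 0.112). Each of these 9 calls was lost without some array, and Lce1d kept it in 6 of 10 cases.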

How the results depend on the processing

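Against NT 2533 genes were called. The count was 3818 with normexp background correction, 1536 with median scaling, 1297 without the dim-probe filter, 681 with array weights, and 0 in limma with only the 4 arrays (3859 at an unadjusted p under 0.05). Spike-in scaling, chosen after seeing the data, gave 1013. The other settings gave 2300 to 3734, apart from a replicate block, which gave 4889. Leaving out 1 array gave 560 to 3308. Against the other 3 knockdowns (290) there were 1422 (normexp), 440 (quantile), 65 (spike-in), 1254 (deposited table, 921 higher and 333 lower against 68 and 222), 117 (no filter), 489 (above background on all arrays), 635 (trend and robust prior) and 36 to 335 with 1 array left out. Against Ino80b siRNA (14) there were 49 (normexp), 25 (quantile), 2 (spike-in), 24 (deposited table), 47 (trend and robust prior), 0 to 9 with 1 array left out, and 0 in limma without the filter or with only the 4 arrays, where 1925 and 1769 genes had an unadjusted p under 0.05. The cause of these differences was not tested.

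The Ino80 fall was -1.20 with only the 4 arrays and did not pass (limma adjusted p = 0.118, against 0.000298 to 0.0389 in the other alternatives). It was -1.30 to -1.10 with 1 array left out. Of 230 named calls 90 to 199 were kept with 1 array left out, 107 with array weights, 133 with spike-in scaling, 177 with median scaling and 0 with only the 4 arrays. Fcgr3 turned to -0.28 with the mean of its probes.

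Groups share replicate numbers, but nothing in the labels says that they pair the samples. Differences between replicates 1 and 2 of NT and Ino80 correlated with 0.277 over genes. With a replicate block the counts were 4889, 1195 and 55, and all 230 named calls were kept. Genes under background have only a bound.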

Other observations

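Of 15209 genes with a position, 22 runs of at least 3 neighbours were called the same way, 10 higher and 12 lower, and the longest held 4 genes. A lower run of 4 held the kallikreins Klk1b3, Klk1b4, Klk1b5 and Klk1 on chromosome 7, whose similar copies can share signal, as can Oas1f, Oas1a and Oas1d on chromosome 5. Tfcp2l1, Gli2 and Inhbb, which are no copies of each other, made a lower run on chromosome 1. Higher runs of 4 were Gxylt1, Yaf2, Zcrb1 and Pphln1 on chromosome 15 and Nrip1, Usp25, Cxadr and Btg3 on chromosome 16. How many such runs unlinked calls would give was not tested.

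The share of genes called differed by their level in NT. Over 5 equal bins of genes, from the dimmest to the brightest, 5.35%, 8.69%, 11.5%, 7.48% and 4.48% were called higher, and 0.46%, 3.27%, 7.57%, 7.72% and 4.79% lower. The dimmest bin reaches from -8.81 to -4.93 on the log2 scale. By chromosome, the share called higher ran from 5.71% on chromosome 16 to 10.9% on chromosome 3 and the share called lower from 3.59% on chromosome 6 to 6.54% on chromosome 17.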
